A study of Mus musculus with 2 samples.

Results

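Cxcl9, Cxcl10 and Cxcl16, which encode chemokines, and Cxcr3 and Cxcr6, which encode their receptors, were described across the immune cells of mouse livers with diet-induced steatohepatitis. These 5 genes were picked by symbol out of the 32285 genes of the count tables, and all 5 were found in both tables. They were picked with earlier results on the same cells known, the levels in macrophages among them, so their levels are given as a description and with no test. For each gene the cells that hold its RNA, the share of such cells and the level in them are given for both marrow genotypes.

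The livers came from irradiated male C57Bl6/J mice that had received marrow from Trem2-/- donors, against irradiated recipients of marrow from Trem2+/+ littermates. Both groups had 6 weeks to recover and then ate a methionine- and choline-deficient diet for 4 weeks, a model of non-alcoholic steatohepatitis. Live CD45+ cells, negative for the dead-cell dye 7AAD, were sorted, mixed in equal parts from 4 mice of each group and sequenced as 1 droplet library per group with 10x 5′ chemistry. The donor marrow lacks Trem2, a lipid-binding receptor of macrophages, while the recipients' own non-blood cells carry it. Ages were not given in the labels, nor was the share of donor cells in any cell type. With 1 library per group there is no replicate check: cells of a library are not replicates, no p-value is given, and a difference between marrow genotypes cannot be told apart from a difference between 2 pools or 2 captures.

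CXCL9 and CXCL10 are chemokines that interferon-γ induces in myeloid and endothelial cells, and both bind CXCR3, a receptor of activated T cells, NK cells and some dendritic cells. CXCL16 is made as a membrane-bound protein on macrophages, dendritic cells and sinusoidal endothelium and is shed by the protease ADAM10. Its receptor CXCR6 marks T cells and innate lymphocytes that stay in the liver, where they patrol the sinusoids.

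Cxcl9 (ENSMUSG00000029417, 4 exons) lies on chromosome 5 at chr5:92321347-92328079, minus strand, of mm10, and Cxcl10 (ENSMUSG00000034855, 4 exons) at chr5:92346638-92348889 on the same strand, with 18558 bases between them. The 250 bases before each gene's start are shown because the cell classes that held these neighbouring ligands differed in part, as described further on. Both are written 5′ to 3′ on the minus strand (RefSeq, GRCm38.p6), Cxcl9 at chr5:92328080-92328329 and Cxcl10 at chr5:92348890-92349139. Capitals mark motif matches.
Cxcl9: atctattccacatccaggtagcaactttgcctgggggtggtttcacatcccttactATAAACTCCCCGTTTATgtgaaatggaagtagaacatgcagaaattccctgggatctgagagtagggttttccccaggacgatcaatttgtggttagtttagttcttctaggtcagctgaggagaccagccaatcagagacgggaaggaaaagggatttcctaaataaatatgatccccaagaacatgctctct
Cxcl10: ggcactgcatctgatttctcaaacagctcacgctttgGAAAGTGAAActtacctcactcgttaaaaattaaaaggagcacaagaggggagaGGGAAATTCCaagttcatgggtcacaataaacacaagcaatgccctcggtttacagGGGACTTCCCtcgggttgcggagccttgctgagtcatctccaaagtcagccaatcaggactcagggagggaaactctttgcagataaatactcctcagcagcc
In Cxcl10 the first capitals are an interferon-stimulated response element (GAAANNGAAA), 213 to 204 bases before the start, and the other 2 are NF-κB motifs, 159 to 150 and 103 to 94 bases before it. In Cxcl9 the capitals are an inverted repeat (ATAAACNNNNNGTTTAT), 194 to 178 bases before the start, which was picked after the sequence had been read. Over 32851 promoters of that length and on both strands, the response element was present in 2.98% and the NF-κB motif in 3.9%. The inverted repeat was present in 1 promoter, that of Cxcl9, from which it was written, so nothing is read from its count. The interferon-γ-activated site TTCNNNGAA, present in 7.02% of promoters, had no match in either window, and these 4 motifs had no match in the 250 bases before the RefSeq starts of Cxcr3 and Cxcr6; the RefSeq start of Cxcr3 lies inside the GENCODE gene, so part of its window does too. A match is a run of letters and does not show that a factor binds there.

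Cxcl16 (ENSMUSG00000018920, 5 exons) lies at chr11:70453983-70459984, minus strand, and shares 552 bases with Zmynd15 on the other strand. Cxcr3 (ENSMUSG00000050232, 2 exons) lies at chrX:101731535-101734269, minus strand, and Cxcr6 (ENSMUSG00000048521, 2 exons) at chr9:123806475-123811760, plus strand, inside Fyco1, which runs the other way. Cxcl10 lies wholly inside Art3, also on the opposite strand. No source used here says whether reads were counted by strand, so reads of these pairs may not be fully apart. The partners were lower: over all barcodes Art3 had 170 UMIs (unique molecular identifiers, one per captured RNA molecule) with Trem2-/- marrow and 125 with Trem2+/+ marrow, while Cxcl10 had 4938 and 5196. Fyco1 had 658 and 525 UMIs against 1793 and 849 for Cxcr6, and Zmynd15 733 and 826 against 4408 and 5629 for Cxcl16.

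Filtering kept 5973 of 6362 barcodes with Trem2-/- marrow and 6596 of 7012 with Trem2+/+ marrow, with a median of 2932 and 2492 UMIs per cell. Cells were clustered and the clusters named "X-like" from marker genes; 8 of 29 clusters stayed unnamed and are called by number. Trem2 itself stood at 44.9 CPM (UMIs of the gene per 1000000 UMIs of the same cells) in macrophage-like cells of the Trem2-/- library and at 688 CPM in those of the Trem2+/+ library. The macrophage-like class joins cluster 10, led by Gpnmb, Mmp12 and Fabp5, with 78 and 444 cells, and cluster 13, led by C1q genes, Cd207 and Tmem119, with 125 and 330 cells, so most of the class was cluster 13 in the Trem2-/- library and cluster 10 in the Trem2+/+ library. The T cell-like class joins cluster 3, led by Gzmk, Pdcd1 and Cd8a, with 569 and 306 cells, and cluster 6, led by Lef1, Tcf7 and Il7r, with 256 and 339 cells. Endothelial-like cells, 958 and 673, held Ptprc, the gene of CD45, at 57.5 and 83.7 CPM, while T cell-like cells held it at 1097 and 1033 CPM, so the gene behind the sort was low there. Intervals are exact 95% intervals (Poisson for levels, Clopper-Pearson for shares, conditional binomial for ratios) and cover counting error only, not differences between mice. For levels and ratios each UMI counts as independent, so the spread between cells is not covered either. Leaving out the highest cell of each library moved some ratios outside their interval, as given further on.

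**Figure D1:**
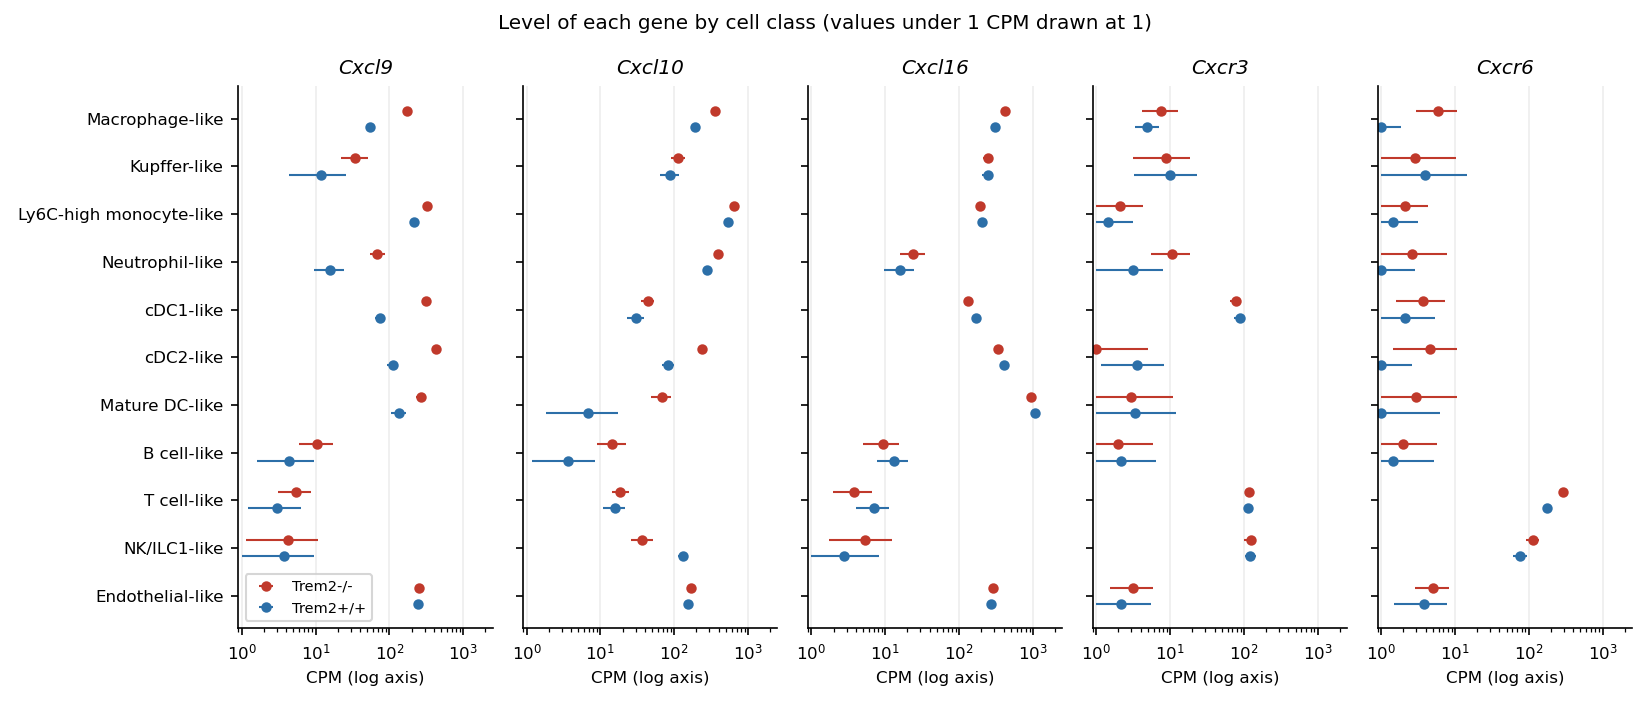
Level of each of the 5 genes (CPM, log axis) in 11 cell classes, with Trem2-/- marrow in red above Trem2+/+ marrow in blue; bars are 95% Poisson intervals and values under 1 CPM are drawn at 1. Cxcl9 was highest in cDC2-like cells of the Trem2-/- library (432 CPM, from 15 positive cells of 125) and in endothelial-like cells of the Trem2+/+ library (241 CPM). Cxcr6 was highest in T cell-like cells of both (288 and 175 CPM).

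Cxcl9 RNA was held by dendritic, monocyte-like, endothelial-like and macrophage-like cells, and over all kept cells it was higher with Trem2-/- marrow. It stood at 155 CPM (3861 UMIs) in the Trem2-/- library and at 88.4 CPM (2372 UMIs) in the Trem2+/+ library, for a log2 ratio of 0.81 (interval 0.74 to 0.89). It was detected in 9.93% of cells with Trem2-/- marrow and in 6.44% with Trem2+/+ marrow. In the Trem2-/- library conventional type 2 dendritic cell (cDC2)-like cells led with 432 CPM, followed by Ly6C-high monocyte-like cells (325 CPM), cDC1-like cells (316 CPM), mature dendritic cell (DC)-like cells (271 CPM), endothelial-like cells (252 CPM) and macrophage-like cells (171 CPM). From the monocyte-like to the endothelial-like class of that order, the intervals of neighbours overlapped. The first place of cDC2-like cells rested on 15 positive cells of 125, of which a few held most of the UMIs, as given further on. In the Trem2+/+ library endothelial-like (241 CPM) and monocyte-like cells (213 CPM) led with overlapping intervals, and macrophage-like cells stood at 54.1 CPM beside cDC1-like cells at 75.2 CPM. The share with a UMI in B cell-like and T cell-like cells, which should lack the gene, was 1.67% and 1.82% with Trem2-/- marrow, and 0.769% and 0.775% with Trem2+/+ marrow; in NK/ILC1-like cells it was 1.87% and 1.45%. These shares are read as background, and its source was not tested. Median depths of B and T cell-like cells were 1984 and 3482 UMIs with Trem2-/- marrow and 1733 and 3312 with Trem2+/+ marrow. These depths were below those of the macrophage-, monocyte- and dendritic cell-like classes.

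Endothelial-like cells and monocyte-like cells carried Cxcl9 in different ways. In endothelial-like cells 310 of 958 cells (32.4%) held it with Trem2-/- marrow and 181 of 673 (26.9%) with Trem2+/+ marrow, but with a mean of only 2.57 and 2.48 UMIs per positive cell. In Ly6C-high monocyte-like cells 55 of 464 (11.9%) and 55 of 658 (8.36%) held it, with a mean of 19.7 and 16.0 UMIs per positive cell. The same split, many cells at a low level against few at a high level, was thus present in both libraries. The endothelial level did not differ beyond counting error, with a log2 ratio of 0.06 (interval -0.11 to 0.23). Thinned to 1000 UMIs per cell, the endothelial shares were 15.9% of 762 cells and 15.8% of 499 cells.

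In macrophage-like cells Cxcl9 was 3.16-fold higher with Trem2-/- marrow, with 171 against 54.1 CPM and a log2 ratio of 1.66 (interval 1.43 to 1.89). It was detected in 28 of 203 cells (13.8%, interval 9.37% to 19.3%) with Trem2-/- marrow and in 54 of 774 (6.98%, interval 5.28% to 9.01%) with Trem2+/+ marrow. Both the share of positive cells and the level per positive cell were higher: positive cells held a mean of 11.3 against 6.28 UMIs and a median of 2.5 against 1. Thinned to 1000 UMIs, 10 of 202 cells (4.95%) and 15 of 766 cells (1.96%) were positive. A few cells held most of the RNA. The 3 highest cells, with 110, 59 and 46 UMIs, held 68.0% of the 316 UMIs in the Trem2-/- library, and those with 71, 62 and 25 UMIs held 46.6% of the 339 UMIs in the Trem2+/+ library. Without the highest cell of each library the log2 ratio was 1.39. The difference was larger in cluster 10, with 91.4 against 10.3 CPM (log2 3.15, interval 2.55 to 3.76), than in cluster 13, with 219 against 121 CPM (log2 0.86, interval 0.62 to 1.11). Without the highest cell of each library these log2 ratios were 1.81 in cluster 10 and 0.43 in cluster 13. The cluster 10 values rested on few positive cells, 8 of 78 and 21 of 444, and on 3 and 6 after thinning. In cluster 13, 20 of 125 and 33 of 330 cells were positive.

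The boundary between macrophages and monocytes was drawn by clustering and bears on this result. With macrophage-, Kupffer- and monocyte-like cells counted together, a set chosen after seeing the data, Cxcl9 stood at 243 CPM in 817 cells with Trem2-/- marrow and at 112 CPM in 1554 cells with Trem2+/+ marrow. The log2 ratio was 1.11 (interval 0.998 to 1.22), and it was 1.15 without the highest cell of each library. A gate on C1q genes with Adgre1 or Cd68 and no Clec4f, which uses no clusters, gave 219 CPM in 460 cells and 142 CPM in 1048 cells (log2 0.62), and clustering each library alone gave a log2 ratio of 2.71 for macrophage-like cells. Monocyte-like cells alone had a log2 ratio of 0.61 (interval 0.48 to 0.74), a direction that turned under 3 other clusterings (-0.19 to -1.89). Kupffer-like cells had 24 UMIs (34.7 CPM) with Trem2-/- marrow and 6 UMIs (12.0 CPM) with Trem2+/+ marrow; this direction turned under 5 alternatives.

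Markers of other cell types also differed between the macrophage-like cells. All 7 T-cell markers were higher in macrophage-like cells of the Trem2-/- library, with a summed level of 62.2 CPM against 11.5 CPM with Trem2+/+ marrow, and in cluster 13 of 94.1 against 12.9 CPM. Of 8 endothelial markers 5 were higher with Trem2-/- marrow, but their sum was lower, at 139.6 CPM against 304 CPM with Trem2+/+ marrow. Of 7 Kupffer markers 6 were higher with Trem2-/- marrow in the class, with sums of 1196 and 956 CPM, but 0 in cluster 10 and 3 in cluster 13. Cxcl9 itself was at 5.39 and 3.06 CPM in T cell-like cells. The part of these markers in the Cxcl9 result was not tested.

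Dendritic cells showed the same direction. In cDC1-like cells, which prime CD8 T cells, Cxcl9 stood at 316 CPM with Trem2-/- marrow and 75.2 CPM with Trem2+/+ marrow, which is a log2 ratio of 2.07 (interval 1.81 to 2.34). The shares of positive cDC1-like cells were 20.1% and 12.3%, and one cell of the Trem2-/- library held 320 UMIs; without the highest cell of each library the log2 ratio was 1.71. In these cells 0 of 7 neutrophil markers were higher with Trem2-/- marrow, with a summed level of 117 CPM against 767 CPM with Trem2+/+ marrow, and 6 of 7 T-cell markers were higher, at 47.1 and 20.9 CPM; Cxcl9 stood at 69.1 and 15.8 CPM in neutrophil-like cells, and the part of these markers was not tested. In cDC2-like cells it stood at 432 and 110.5 CPM (log2 1.97, interval 1.70 to 2.24), with 15 positive cells in each library. The 3 highest cDC2-like cells held 77.2% of the UMIs with Trem2-/- marrow and 91.0% with Trem2+/+ marrow. Mature DC-like cells, 88 in each library, stood at 271 and 134 CPM (log2 1.01, interval 0.63 to 1.41). In neutrophil-like cells Cxcl9 stood at 69.1 CPM (78 UMIs, 3.99% of cells) with Trem2-/- marrow and at 15.8 CPM (20 UMIs, 1.43% of cells) with Trem2+/+ marrow, and the share with Trem2+/+ marrow lies within that of lymphocytes. The log2 ratio of neutrophil-like cells was 2.13 (interval 1.40 to 2.91), and 2.66 without the highest cell of each library.

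**Figure D2:**
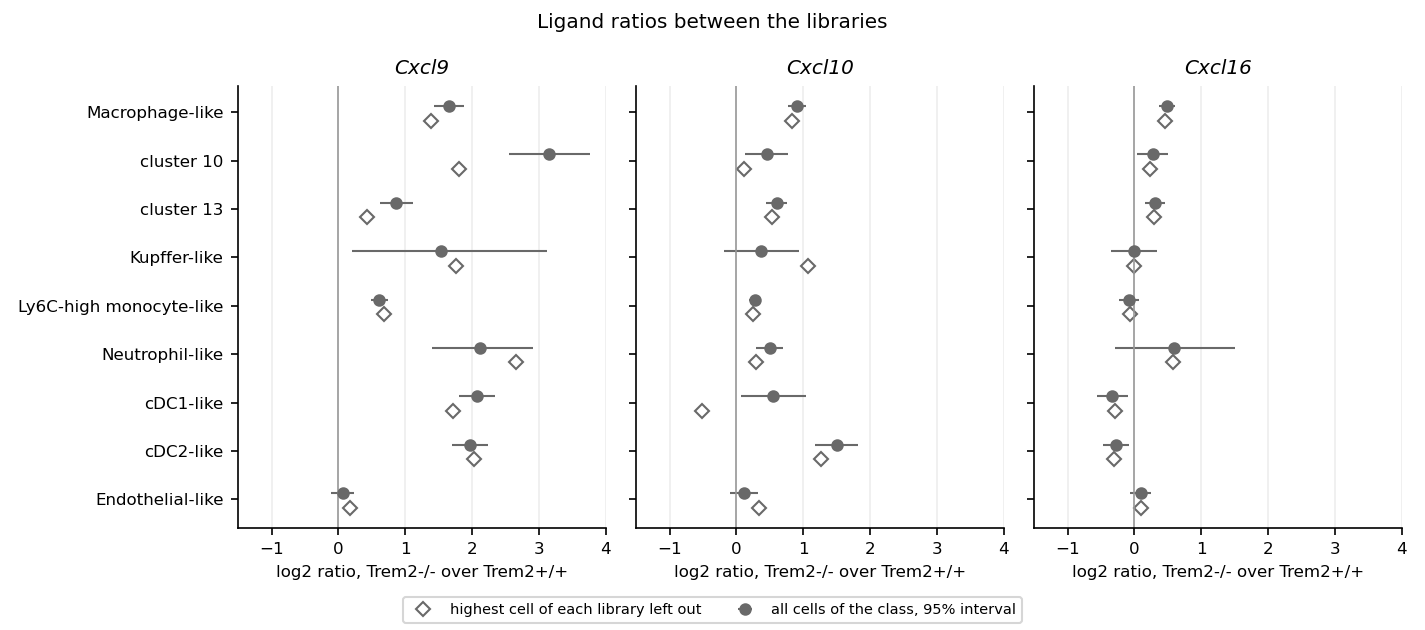
Log2 ratio of Trem2-/- over Trem2+/+ marrow for the 3 ligands in 9 sets of cells, with 95% intervals for counting error; open diamonds leave out the highest cell of each library. Cxcl9 lay above 0 in macrophage-like (1.66), cDC1-like (2.07) and cDC2-like cells (1.97) and near 0 in endothelial-like cells (0.06), while Cxcl16 lay at 0.49 in macrophage-like and at -0.33 in cDC1-like cells.

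Cxcl10, the other interferon-inducible CXCR3 ligand, was highest in Ly6C-high monocyte-like cells, and over all cells its level was nearly the same in both libraries. It stood at 196 CPM with Trem2-/- marrow and 190.2 CPM with Trem2+/+ marrow (log2 0.05, interval -0.01 to 0.10), in 12.7% and 12.5% of cells. Monocyte-like cells led both orders with 649 and 537 CPM and held 44.2% and 43.5% of each library's Cxcl10 UMIs. In the Trem2-/- library neutrophil-like (394 CPM) and macrophage-like cells (356 CPM) followed with overlapping intervals, then cDC2-like (236 CPM) and endothelial-like cells (167 CPM). In the Trem2+/+ library neutrophil-like cells (279 CPM) stood above macrophage-like cells (190.2 CPM) and these above endothelial-like cells (155 CPM). cDC1-like and mature DC-like cells, which were among the leading holders of Cxcl9 with Trem2-/- marrow, were low in Cxcl10 in both libraries. They stood at 44.3 and 30.3 CPM and at 67.4 and 6.71 CPM.

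In macrophage-like cells Cxcl10 stood at 356 CPM with Trem2-/- marrow and at 190.2 CPM with Trem2+/+ marrow, a log2 ratio of 0.90 (interval 0.76 to 1.04). It was detected in 63 of 203 cells (31.0%) and in 181 of 774 cells (23.4%), and in 14.4% and 9.92% after thinning to 1000 UMIs. Positive cells held a mean of 10.4 UMIs with Trem2-/- marrow against 6.59 with Trem2+/+ marrow, with a median of 4 in both. Without the highest cell of each library the log2 ratio was 0.83. Cluster 13 had 485 against 319.8 CPM (log2 0.60, interval 0.44 to 0.76) and cluster 10 had 144 against 105 CPM (log2 0.46, interval 0.13 to 0.78; 0.11 without the highest cells). Together, macrophage-, Kupffer- and monocyte-like cells had a log2 ratio of 0.64 (interval 0.57 to 0.71). Of the 3 ligands, 2 were at least 1.5-fold higher with Trem2-/- marrow in macrophage-like cells, where 2.83% of all measured genes passed that fold; the ligands were chosen on this contrast, so nothing is read from that count.

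Elsewhere the Cxcl10 differences were smaller or lay in few cells. Monocyte-like cells had a log2 ratio of 0.27 (interval 0.19 to 0.36) with 38.6% and 36.3% positive cells, and this direction turned under 4 alternatives (-0.25 to -0.01). Neutrophil-like cells had a log2 ratio of 0.50 (interval 0.29 to 0.70), with cluster 11 at 862 and 462 CPM and cluster 4 at 73.2 and 130.5 CPM, so their clusters went opposite ways. cDC2-like cells stood at 236 and 83.4 CPM (2.83-fold, log2 interval 1.18 to 1.83; a log2 ratio of 1.26 without the highest cells), with 20 positive cells in each library; when cells were clustered without the interferon-γ lists they stood at 384 and 328 CPM (log2 0.23), and with cells weighted equally the log2 ratio was 0.94. Endothelial-like cells did not differ beyond counting error (log2 0.11, interval -0.10 to 0.32). In NK/ILC1-like cells (natural killer cells and type 1 innate lymphocytes) Cxcl10 stood at 37.1 CPM with Trem2-/- marrow and 132 CPM with Trem2+/+ marrow, but 1 cell of the Trem2+/+ library held 120 of its 142 UMIs, and the log2 ratio was -1.83 with it and 0.19 without the highest cell of each library. The share of positive B cell-like cells, read as background, was 1.95% and 0.641%.

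In monocyte-, macrophage- and endothelial-like cells Cxcl10 was detected more often where Cxcl9 was detected. Among monocyte-like cells Cxcl10 was detected in 69.1% of Cxcl9-positive cells against 34.5% of Cxcl9-negative cells in the Trem2-/- library, and in 60.0% against 34.2% in the Trem2+/+ library. In macrophage-like cells these shares were 46.4% against 28.6% and 42.6% against 21.9%. Positive cells were deeper, so the shares were repeated in cells thinned to 1000 UMIs: they were 41.9% against 18.1% and 32.3% against 19.8% in monocyte-like cells. In macrophage-like cells only few Cxcl9-positive cells remained: 3 of 10 held Cxcl10, against 13.5% of Cxcl9-negative cells, with Trem2-/- marrow, and 2 of 15, against 9.85%, with Trem2+/+ marrow. In cluster 10 of the Trem2+/+ library the unthinned shares were 14.3% and 13.9% (after thinning 0 of 6 Cxcl9-positive cells held Cxcl10), and in Kupffer-like cells of that library 0 of 5 Cxcl9-positive cells held Cxcl10. Endothelial-like cells gave 19.0% against 7.02% with Trem2-/- marrow and 13.9% against 8.10% with Trem2+/+ marrow after thinning.

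**Figure D3:**
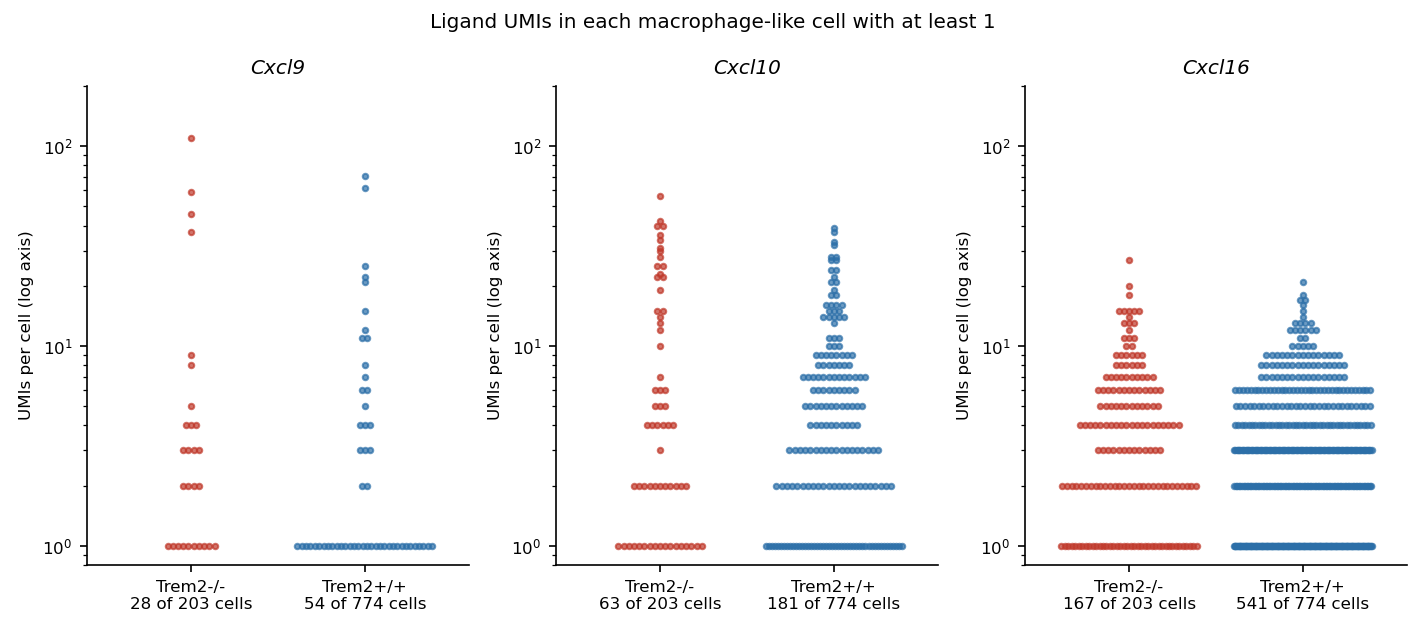
UMIs of each ligand in the positive macrophage-like cells of each library (log axis; each point is a cell, Trem2-/- marrow left of Trem2+/+ marrow). Cxcl9 was detected in 28 of 203 and 54 of 774 cells, with a few cells far above a median of 2.5 and 1 UMIs, while Cxcl16 was detected in 167 and 541 cells.

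Cxcl16, the ligand of CXCR6, had a broader and flatter pattern, and over all cells it was lower with Trem2-/- marrow. It stood at 175 CPM with Trem2-/- marrow and 207 CPM with Trem2+/+ marrow (log2 -0.24, interval -0.30 to -0.18), in 25.3% and 28.5% of cells. Mature DC-like cells led both orders with 929.9 and 1074 CPM, and 88.6% and 89.8% of them were positive. Macrophage-like cells came next in the Trem2-/- library with 425 CPM, followed by cDC2-like (332 CPM), endothelial-like (291 CPM) and Kupffer-like cells (244 CPM), the last 3 with overlapping intervals between neighbours. In the Trem2+/+ library cDC2-like cells (402 CPM) came before macrophage-like cells (303 CPM), from which each neighbour down to cDC1-like cells (168 CPM) overlapped. Neutrophil-, B cell- and T cell-like cells were low, with 1.45% to 4.18% positive cells under Trem2-/- marrow against 2.31% to 2.43% under Trem2+/+ marrow.

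In macrophage-like cells Cxcl16 was 1.40-fold higher with Trem2-/- marrow, with a log2 ratio of 0.49 (interval 0.37 to 0.61), and 82.3% of cells were positive against 69.9% with Trem2+/+ marrow. Positive cells held a mean of 4.7 and 3.51 UMIs. The difference was smaller within each cluster: cluster 10 had 277 against 229 CPM (log2 0.27, interval 0.04 to 0.50) and cluster 13 had 515 against 416 CPM (log2 0.31, interval 0.16 to 0.46). Cluster 13, the higher of the pair in both libraries, made up more of the class with Trem2-/- marrow. With Kupffer- and monocyte-like cells included, the log2 ratio was 0.05 (interval -0.04 to 0.14). Dendritic classes lay on the other side of 0, at -0.33 (interval -0.57 to -0.10) in cDC1-like, -0.28 (interval -0.47 to -0.08) in cDC2-like and -0.21 (interval -0.37 to -0.05) in mature DC-like cells. The intervals of endothelial-like (log2 0.09), Kupffer-like (0.00) and monocyte-like cells (-0.08) all included 0, but the monocyte-like value ranged from -1.64 to -0.02 over 12 alternatives. Adam10, which encodes the protease that sheds CXCL16, stood at 218 and 191 CPM in macrophage-like cells (log2 0.19), and Adam17, another sheddase, at 173 and 168 CPM (log2 0.04).

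Other interferon-γ targets were compared in the same cells, from a list of 12 genes (4 guanylate-binding proteins, Irgm1, Igtp, Iigp1, Ciita, Cd274, Ido1, Psmb8 and Psmb9). In macrophage-like cells 11 of them had a mean of at least 20 CPM; all 11 lay above 0, 5 were at least 1.5-fold higher with Trem2-/- marrow and 0 lower, against 2.83% higher and 1.64% lower over all measured genes. Their median log2 ratio was 0.51, against 0.01 over all measured genes. Gbp3 stood at 64.4 and 32.6 CPM (log2 0.98), and Igtp, which guards vacuoles against pathogens, at 33.0 and 16.4 CPM (log2 1.01). Ciita, the master regulator of MHC class II genes, stood at 66.0 and 43.2 CPM (log2 0.61), and Psmb8, an immunoproteasome subunit below that fold, at 439 and 338 CPM (log2 0.38). The counts past the fold differed between the clusters. In cluster 10, 3 of 7 targets passed (all genes 6.12%), with Gbp2 at 52.9 and 25.7 CPM, and the median was 0.51. In cluster 13, 0 of 11 passed (all genes 3.11%) and the median was 0.22, but Gbp3 (log2 0.53), Gbp7 (0.51) and Igtp (0.53) lay just below the fold. Gbp7 and Igtp were not among the targets measured in cluster 10, and the Gbp3 intervals of both clusters overlapped (0.40 to 1.79 and 0.14 to 0.92). Of 9 genes that receive and relay the interferon-γ signal, 7 were measured in macrophage-like cells and 0 passed the fold in either direction, with a median of 0.11.

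The same list was read in the other classes that hold the ligands. In cDC2-like cells 3 of 8 targets passed the fold upward (all genes 4.73%), with Gbp2 at 174 and 54.2 CPM (log2 1.68). In neutrophil-like cells 3 of 8 did (all genes 3.61%), with Gbp2 at 287 and 159 CPM, and in Kupffer-like cells 4 of 11 did (all genes 9.23%). In cDC1-like cells, where the Cxcl9 ratio was large, 1 of 4 passed (all genes 1.58%), Irgm1 at 44.3 and 27.1 CPM, and the median was 0.06. In monocyte-like cells 0 of 10 passed (all genes 0.964%) and the median was 0.15. In endothelial-like cells 0 of 8 passed upward (all genes 1.27%) and the median was -0.11. There 1 of 6 genes of ligand processing and scavenging passed downward (all genes 1.21%), Ackr1, an atypical receptor that binds chemokines without signalling, at 21.2 and 32.7 CPM. Dpp4, a protease that trims CXCL9 and CXCL10, stood at 438 and 373 CPM in these cells (log2 0.23). Lists were described and not tested.

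Within a library, Cxcl9-positive cells were set against Cxcl9-negative cells of the same class, a contrast of cells and not of samples. In monocyte-like cells all 11 measured interferon-γ targets were at least 1.5-fold higher in positive cells of both libraries, against 10.1% of all genes in the Trem2-/- library and 11.3% in the Trem2+/+ library. Gbp2 stood at 657 CPM in positive and 104 CPM in negative cells with Trem2-/- marrow (log2 2.66), and at 893 and 66.0 CPM with Trem2+/+ marrow (log2 3.76). Iigp1, a GTPase that attacks parasite vacuoles, stood at 65.0 and 4.53 CPM (log2 3.84) with Trem2-/- marrow and at 75.8 and 2.95 CPM (log2 4.68) with Trem2+/+ marrow. Ifngr1, a chain of the interferon-γ receptor, went the other way, with log2 ratios of -0.74 and -1.04. In macrophage-like cells 5 and 9 of 11 targets were higher in Cxcl9-positive cells (all genes 14.8% and 7.87%), and in endothelial-like cells 0 of 8 and 2 of 9 were (all genes 1.92% and 4.45%). For Cxcl10 in macrophage-like cells 6 and 8 of 11 targets were higher in positive cells (all genes 7.87% and 5.77%), and for Cxcl16 4 of 10 and 2 of 7 were (all genes 9.15% and 3.65%). Positive cells were deeper in each class, with a median of 7651 UMIs against 6780 in monocyte-like cells and 4098 against 2387 in endothelial-like cells of the Trem2-/- library; the part of depth was not tested.

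**Figure D4:**
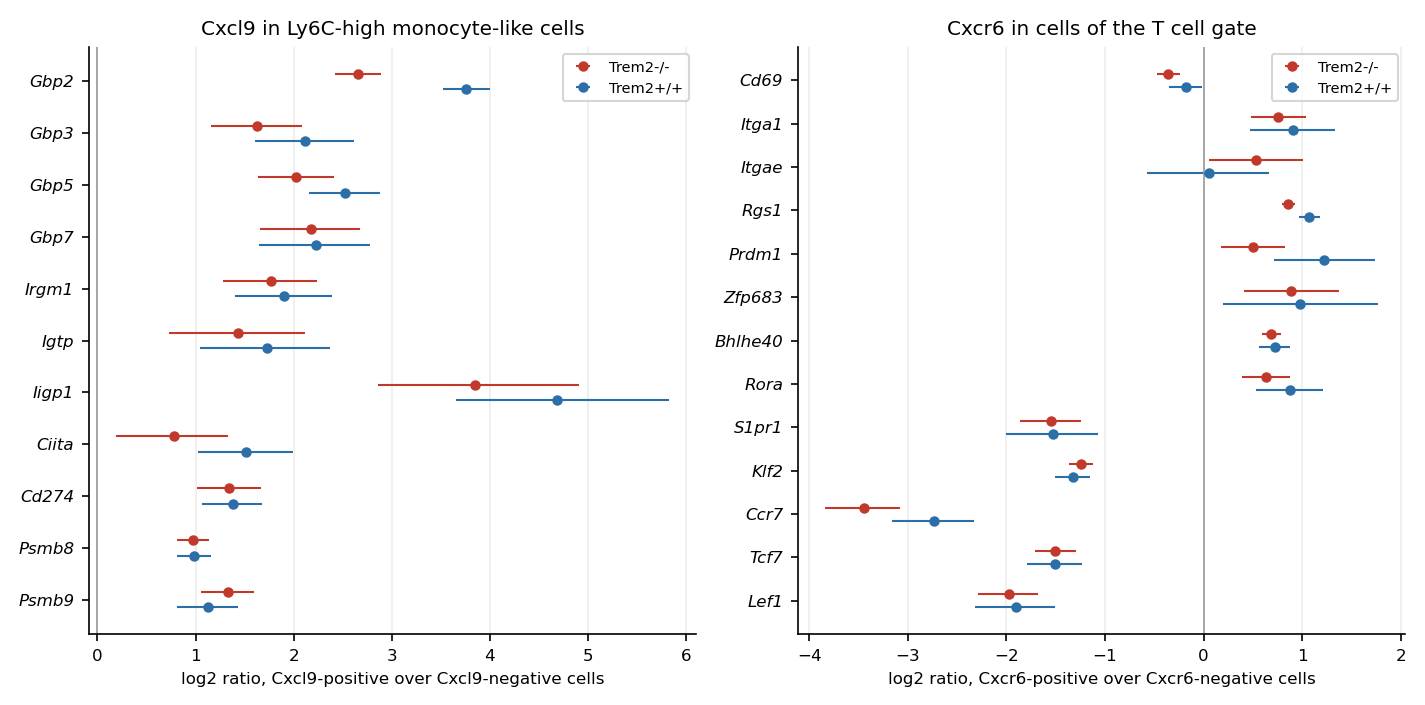
Log2 ratio, with 95% intervals, of positive over negative cells within each library: 11 interferon-γ targets in Cxcl9-positive monocyte-like cells, and 8 residency and 5 recirculation genes in Cxcr6-positive cells of the T gate. All 11 targets lay above 0 in both libraries (Gbp2 2.66 and 3.76), and all 5 recirculation genes drawn below 0 (Ccr7 -3.44 and -2.73).

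Cxcr3, the receptor of CXCL9 and CXCL10, was held by T cell-, NK/ILC1- and cDC1-like cells, and within each of these its level did not differ between the libraries beyond counting error. NK/ILC1-like cells stood at 123 and 122 CPM (log2 0.01, interval -0.36 to 0.38), with 35.0% and 31.5% positive cells. T cell-like cells stood at 116 and 113 CPM (log2 0.04, interval -0.20 to 0.27), with 30.8% and 28.4% positive cells and a mean of 1.44 and 1.42 UMIs in each. Among the classes the first 5 places, which plasmacytoid dendritic cell-like and cycling cells also held, had overlapping intervals between neighbours in both libraries. In cDC1-like cells 43.4% and 41.4% were positive, at 77.1 and 87.2 CPM (log2 -0.18, interval -0.50 to 0.14). Their median depth, 11971 and 9408 UMIs, was over that of T cell-like cells, and after thinning 10.4% and 9.05% of cDC1-like cells were positive, beside 10.4% and 10.6% of T cell-like cells. Background shares were 0.731% and 0.594% in endothelial-like cells and 2.09% and 0.429% in neutrophil-like cells.

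Over all cells, in contrast, Cxcr3 was higher with Trem2-/- marrow, at 50.1 and 34.4 CPM (log2 0.54, interval 0.42 to 0.67) and in 12.9% and 8.82% of cells. Clusters outside the named classes held much of it. Cluster 14, led by Cd40lg, Icos and Cd4, stood at 175 and 169 CPM with 289 and 155 cells, cluster 18, led by Klra genes, Trdc and Cd160, at 198 and 150.3 CPM with 157 and 67 cells, and cluster 22, led by Foxp3 and Areg, at 159 and 208 CPM with 94 and 24 cells. A T gate that does not depend on the clusters (at least 2 of Cd3e, Cd3d, Cd3g and Trac, and no Cd79a) held 1429 and 946 cells. In the gate Cxcr3 stood at 138 and 122 CPM (log2 0.17, interval 0.01 to 0.34). Gated CD4 cells (176 and 151 CPM) stood above gated CD8 cells (117 and 114 CPM) in both libraries, and Foxp3-positive cells, regulatory T cells by that gene, were positive in 33 of 55 and 13 of 26 cells.

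Cxcr6, the receptor of CXCL16, was held almost wholly by T cells and innate lymphocytes, and its level in them was higher with Trem2-/- marrow. The sets of T cells that went the other way were clusters 6 and 14 and gated cells outside the CD8, CD4, γδ and Foxp3 subsets. Over all cells it stood at 71.9 CPM with Trem2-/- marrow and 31.5 CPM with Trem2+/+ marrow (log2 1.19, interval 1.07 to 1.31), in 13.5% and 6.43% of cells. The order was the same in both libraries, with T cell-like cells (288 and 175 CPM) above NK/ILC1-like cells (112 and 76.5 CPM) and these above cycling cells, without overlap of neighbours. Neutrophil-like cells held 3 UMIs in 526 cells with Trem2-/- marrow and 0 in 699 cells with Trem2+/+ marrow, where a count of 0 is taken to allow 3 cells with a UMI (0.429%) at this depth, and 1.25% and 0.743% of endothelial-like cells were positive.

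In T cell-like cells Cxcr6 had a log2 ratio of 0.71 (interval 0.54 to 0.89) and was detected in 362 of 825 cells (43.9%, interval 40.5% to 47.3%) with Trem2-/- marrow and in 214 of 645 cells (33.2%, interval 29.6% to 37.0%) with Trem2+/+ marrow. Positive cells held a mean of 2.51 and 1.88 UMIs, and 46 and 12 cells held 5 UMIs or more. After thinning, 21.6% and 14.8% of cells were positive. Of both receptors, 1 was at least 1.5-fold higher here, where 5.88% of all measured genes passed that fold, and nothing is read from the count. Most Cxcr6 lay in cluster 3, at 413 and 334 CPM (log2 0.30, interval 0.12 to 0.49), where 60.5% and 58.2% of cells were positive with a mean of 2.56 and 1.96 UMIs. Cluster 6, led by genes of naive and central memory T cells, stood at 26.4 and 43.2 CPM (log2 -0.71, interval -1.43 to -0.02). Cluster 3 made up more of the class with Trem2-/- marrow, 569 of 825 cells against 306 of 645 cells, and with both clusters weighted equally the log2 ratio of the class was 0.22. Leaving out cells under 500 genes or over 5% mitochondrial UMIs and clustering anew gave 0.15, with 27.1% positive cells of 442 against 28.0% of 453, so the direction of the share turned there.

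The T gate, which does not depend on those clusters, gave 259 and 183 CPM (log2 0.50, interval 0.37 to 0.63), with 47.9% and 36.0% positive cells, and held 88.4% and 84.4% of each library's Cxcr6 UMIs. Gated CD8 cells stood at 278 and 168 CPM (log2 0.72, interval 0.55 to 0.90) and gated CD4 cells at 309 and 165 CPM (log2 0.91, interval 0.56 to 1.27). Gated cells outside the CD8, CD4, γδ and Foxp3 subsets had no subset gene (Cd4, Cd8, γδ receptor or Foxp3), or Cd4 together with Cd8 and no Foxp3. They stood at 207 and 266 CPM (log2 -0.36, interval -0.64 to -0.08). Foxp3-positive cells were low at 63.9 and 45.6 CPM, while γδ T cells (271 and 173 CPM, log2 0.64, interval -0.15 to 1.51) did not differ beyond counting error. Cluster 14 stood at 346 and 362 CPM (log2 -0.07, interval -0.32 to 0.18).

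NK/ILC1-like cells split by their genes. The few with Itga1, which encodes the integrin CD49a of liver-resident ILC1, and without Eomes or Itga2 were 13 and 18 cells. They stood at 227 and 297 CPM of Cxcr6 (13 and 21 UMIs, log2 ratio -0.38 with a counting interval that included 0). The 88 and 102 cells with Eomes or Itga2, genes of circulating NK cells, and without Itga1 held only 10 and 3 UMIs (27.6 and 7.59 CPM, log2 interval -0.10 to 4.36). Most of the class, 113 and 156 cells, had none of these genes, or Itga1 together with Eomes or Itga2. These cells stood at 159 and 95.7 CPM (log2 0.73, interval 0.23 to 1.24). As a class NK/ILC1-like cells had a log2 ratio of 0.56 (interval 0.13 to 0.99), with 23.4% and 15.9% positive cells. Cxcr3 followed the same order, at 139.9 and 198 CPM in the set with Itga1 and 85.5 and 63.2 CPM in the set with Eomes or Itga2.

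**Figure D5:**
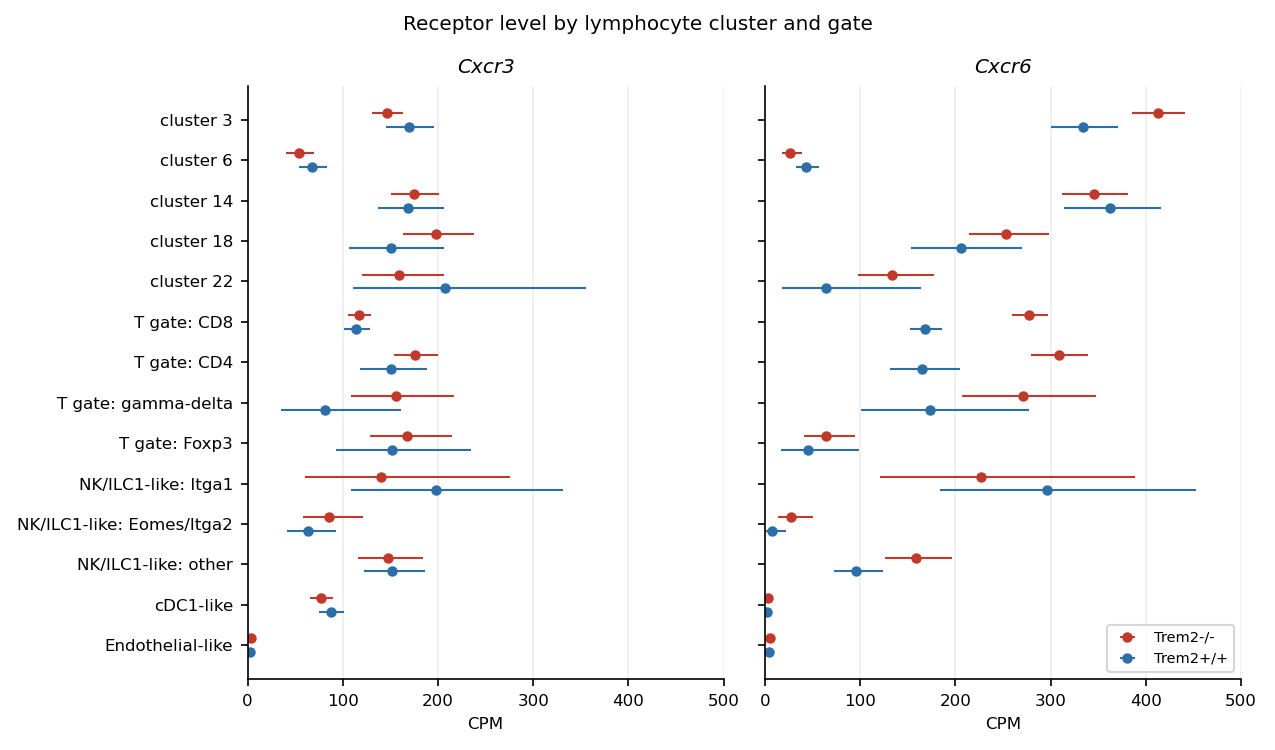
Levels of Cxcr3 and Cxcr6 (CPM, linear axis) with 95% Poisson intervals in T-cell clusters, subsets of the T gate, NK/ILC1-like subsets, cDC1-like and endothelial-like cells, Trem2-/- marrow above Trem2+/+ marrow. Cxcr6 stood at 413 and 334 CPM in cluster 3 and at 26.4 and 43.2 CPM in cluster 6, and Cxcr3 at 77.1 and 87.2 CPM in cDC1-like cells.

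In the T gate Cxcr6 was detected more often in cells with Cxcr3 than in cells without it, in 57.6% of Cxcr3-positive against 42.3% of Cxcr3-negative cells in the Trem2-/- library and in 46.8% against 31.1% in the Trem2+/+ library. After thinning these shares were 27.1% against 20.6% and 24.1% against 13.9%. Within cluster 3 the unthinned shares were closer, at 63.2% against 58.8% and 65.8% against 53.2%. After thinning they were 32.4% against 29.3% with Trem2-/- marrow and 36.7% against 23.5% with Trem2+/+ marrow. In percentage points the latter were not closer than in the gate. In cluster 14 the libraries went opposite ways, at 61.6% against 58.5% and 40.7% against 54.5%, and after thinning the shares were lower in Cxcr3-positive cells of both, at 17.4% against 24.2% with Trem2-/- marrow and 4.35% against 26.2% (1 of 23 Cxcr3-positive cells) with Trem2+/+ marrow. Gated CD4 cells gave 66.4% against 45.5% with Trem2-/- marrow and 45.5% against 28.0% with Trem2+/+ marrow, but 23.2% against 24.0% and 6.25% (1 of 16 cells) against 12.9% after thinning. In NK/ILC1-like cells Cxcr6 was detected in 36.0% of Cxcr3-positive against 16.5% of Cxcr3-negative cells with Trem2-/- marrow, and in 26.4% against 11.1% with Trem2+/+ marrow; after thinning these were 18.2% against 4.79% and 6.45% against 4.31%.

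Cxcr6-positive cells of the T gate were low in genes of recirculation. All 6 genes of that list were at least 1.5-fold lower in positive than in negative cells of both libraries (all genes 2.34% and 4.22%), with medians of -1.76 and -1.70. Ccr7, the receptor that takes T cells to lymph nodes, stood at 20.6 CPM in positive and 224 CPM in negative cells with Trem2-/- marrow (log2 -3.44), and at 36.3 and 241 CPM with Trem2+/+ marrow (log2 -2.73). S1pr1, needed to leave tissues, had log2 ratios of -1.55 and -1.52. Of the residency genes 5 of 8 and 5 of 7 were at least 1.5-fold higher (all genes 3.47% and 5.53%). Rgs1, a brake on chemokine signalling, stood at 1587 and 875 CPM (log2 0.86) with Trem2-/- marrow and at 1119 and 533 CPM (log2 1.07) with Trem2+/+ marrow, while Cd69, an activation and retention gene, lay slightly below 0 (-0.36 and -0.18). Cxcr6-positive cells were deeper, with a median of 3906 against 3385 UMIs and of 3705 against 3260 UMIs; the part of depth was not tested. Cxcr3-positive cells were lower in 4 and 6 of the 6 recirculation genes (all genes 1.73% and 3.16%) and higher in 1 of 8 and 1 of 7 residency genes (all genes 2.57% and 4.8%). In NK/ILC1-like cells Cxcr6-positive cells had 3.65 CPM of Eomes against 206 CPM in negative cells with Trem2-/- marrow, and 4.60 against 163 CPM with Trem2+/+ marrow. There 4 and 5 of 6 residency genes were higher in positive cells (all genes 13.9% and 17.4%), and 6 and 4 of 11 type 1 effector genes, Ccl5 among them, were lower (all genes 11.2% and 11.1%). Against these, 1 residency gene was lower with Trem2-/- marrow and 1 type 1 effector gene was higher with Trem2+/+ marrow. Of the recirculation genes 2 of 4 and 2 of 5 were lower, and 1 of those 5 was higher.

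The same lists were compared between the libraries in the T gate. Of 8 residency genes 5 were at least 1.5-fold higher with Trem2-/- marrow and 0 lower (all genes 2.8% higher and 0.602% lower), and the median log2 ratio was 0.66 against 0.07 over all genes. Markers of other lymphocytes differed in the same gate: 6 of 8 NK/ILC1 markers were higher, with a summed level of 2159.7 CPM with Trem2-/- marrow and 1638 CPM with Trem2+/+ marrow, and 6 of 7 ILC2 markers, with 211 and 129.7 CPM. Rora is on both the ILC2 and the residency list, and the part of these markers was not tested. Bhlhe40 stood at 587 and 349 CPM (log2 0.75) and Itga1 at 77.3 and 48.4 CPM (log2 0.68). Zfp683, which encodes Hobit, a factor of tissue-resident lymphocytes, stood at 27.9 and 15.4 CPM (log2 0.85). The median of the recirculation genes was -0.28, with Ccr7 at 119 and 163 CPM (log2 -0.46). Of 10 type 1 effector genes 1 passed upward, Ifng at 271 and 149 CPM (log2 0.86). Of 10 genes of chemokine receptor signalling 1 passed upward, Rgs1 at 1243 and 758 CPM, which is on the residency list too, and the median was 0.18. Within cluster 3 only 1 of 7 residency genes, Zfp683 at 33.8 and 9.60 CPM, passed (all genes 6.73%), and the median was 0.19. In cluster 14, 3 of 7 passed upward and 1 downward (all genes 5.43% higher and 9.35% lower), and the median log2 ratio was 0.48. Those higher were Itga1 at 45.8 and 19.5 CPM, Rgs1 at 1028 and 624 CPM and Bhlhe40 at 971 and 510.0 CPM, and the lower was Itgae (log2 ratio -1.62).

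The cell makeup of the libraries, which a sort and pooling can set, entered the whole-library values. Per 1000 cells the Trem2-/- library held 646 UMIs of Cxcl9 against 359.6 in the Trem2+/+ library, and would hold 829.9 with its own levels in each class and the cell makeup of the Trem2+/+ library. For Cxcl10 these values were 818, 774 and 1179 UMIs. For Cxcl16 they were 730.5, 843 and 1063 UMIs, so the direction over all cells turned with the makeup. For the receptors the difference became smaller, with 208, 139.9 and 176 UMIs for Cxcr3 and 299.5, 128 and 206 UMIs for Cxcr6. In log2 ratios, Cxcl16 was at -0.21 as measured and 0.33 with the makeup of the Trem2+/+ library, and Cxcr6 at 1.23 and 0.68.

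Genes whose levels followed each member over the 10 classes with at least 100 cells in both libraries were named by Pearson's r of log levels over 5208 genes, as a description; these points share libraries and depth. Clic4 (r = 0.958 in the Trem2-/- library and 0.970 in the Trem2+/+ library) was most like Cxcl9, ahead of Tns3, Itprid2, Cnih4 and Asap1. Itga5 (0.945 and 0.875), Isg15 (0.868 and 0.888), Sqor, Gsr and Pcyt1a were most like Cxcl10. Id3 (0.964 and 0.986), Phf11d, Ifi207 and Parvb were most like Cxcl16. For the receptors, Rinl (0.875 and 0.885), Cd226, Serpinb6b, Tapbpl and Ctsw were most like Cxcr3, and Ms4a4b (0.961 and 0.970), Cd96, Zap70, Cd27 and Gzmb most like Cxcr6.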

How the data were processed

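Live CD45+ liver cells of 2 groups, pooled from 4 mice each, were measured as 1 droplet library per group. The authors deposited filtered matrices of whole-number UMI counts per gene and cell, which Cell Ranger 5.0.1 wrote, per the file headers, and aligned to mm10 per the submitters' processing notes; the gene and barcode tables deposited beside them hold names only. From the counts, barcodes were kept if they had 200 or more genes and if mitochondrial UMIs made up no more than 10%. Scrublet called 5 and 2 of 13374 barcodes as doublets, so it had not worked, and doublets were in effect not removed; 56 barcode sequences occurred in both libraries.

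After scaling each cell to 10000 counts and taking logs, 2000 variable genes without the 5 genes and Trem2 gave 30 principal components, 15 neighbours and Leiden clusters at resolution 1 (scanpy 1.11.5, leidenalg 0.10.2, scikit-learn 1.9.0, Python 3.11.15). A cluster took the name of the class whose markers had the largest mean log2 fold in it, at least 0.5, with at least 3 markers detected in a share of at least 0.2 of its cells, and stayed unnamed where its 10 leading genes held more markers of another class; these limits, and giving no innate lymphocyte name where Cd3e was detected, were set after the clusters were seen, so classes may differ from the study's own. Levels are summed UMIs of a class as CPM, and intervals are exact (scipy 1.17.1, numpy 2.4.6, pandas 2.3.3). Shares were also taken after thinning each cell to 1000 UMIs and leaving out shallower cells, 847 with Trem2-/- marrow and 1132 with Trem2+/+ marrow. Ratios were tested on simulated counts with known folds. No test between groups was possible with 1 library each, so no alternative carries a p-value.

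Named genes were the 5 genes, for each the 5 genes most alike over 10 classes (the lower of both libraries' r, genes with at least 50 CPM in some class of each library), and members of 7 pathway lists; some of these genes are not reported here. The 5 genes and the lists were chosen with earlier results of these data known. Of 32285 gene IDs, 32158 were found in GENCODE M21 (mm10), which gave positions and exons; promoters came from a RefSeq table of GRCm38.p6 that held 4 of the 5 genes, and Cxcl16 is named only. Cxcl11, a further CXCR3 ligand, was not analysed here. Alternatives were other cell filters, depths, doublet limits, resolutions and clustering genes, each library clustered alone, marker gates and other weights. Leaving out the highest cell, adding clusters 7, 14 and 22 and joining macrophage-, Kupffer- and monocyte-like cells were chosen after seeing the data. Figures were drawn with matplotlib 3.10.9.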

Additional observations from a re-analysis of the deposited data

Results flagged for a closer look

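With all cells counted, the cell classes compared in both results below went opposite ways between the marrow genotypes, each beyond its own counting interval. The difference between the classes was not tested. Cxcl10 had a log2 ratio, Trem2-/- over Trem2+/+ marrow, of 2.002 in B cell-like cells and of -1.83 in NK/ILC1-like cells, which are 3.84 apart on the log2 scale. The B cell-like value rested on 22 UMIs with Trem2-/- marrow and 5 with Trem2+/+ marrow, and 1.95% and 0.641% of the cells were positive. These B cell-like shares were read as background above. The NK/ILC1-like value rested on 35 and 142 UMIs, of which 120 lay in 1 cell of the Trem2+/+ library. Without the highest cell of each library the NK/ILC1-like ratio turned positive, as given above, so its direction rested on that cell.

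Cxcl16 had a log2 ratio of 0.49 in macrophage-like cells and of -0.33 in cDC1-like cells, which are 0.82 apart. In macrophage-like cells 167 of 203 cells with Trem2-/- marrow and 541 of 774 with Trem2+/+ marrow were positive, and in cDC1-like cells 120 of 189 and 124 of 220. In macrophage-like cells the log2 ratio was smaller within each cluster, at 0.27 in cluster 10 and 0.31 in cluster 13.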

How the results depend on the processing

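No paired analysis was possible because each group has 1 library. Values are log2 ratios, Trem2-/- over Trem2+/+ marrow. In macrophage-like cells Cxcl9 (1.66) lay between 0.62 and 2.71 over 15 alternatives: 1.42 without the top Scrublet scores, 2.01 thinned to 1000 UMIs, 1.37 at resolution 2, 2.71 with each library clustered alone, 0.62 by marker gates, 1.25 with clusters weighted equally and 1.39 without the highest cells. Cxcl10 (0.90) was 1.14 at resolution 0.5, 1.07 when clustered without the interferon-γ lists, 1.46 with libraries clustered alone, 0.60 by gates, 0.66 with cells and 0.57 with clusters weighted equally. Cxcl16 (0.49) was 0.34 at resolution 0.5, 0.26 with libraries alone, 0.21 by gates and 0.30 with clusters weighted equally. In T cell-like cells Cxcr3 (0.04) was -0.24 with clusters weighted equally and kept its sign in 13 of 15 alternatives. Cxcr6 (0.71) was 0.15 under a strict filter (500 or more genes, mitochondrial UMIs up to 5%), 0.51 at resolution 0.5, 0.42 at resolution 2, 0.91 without the interferon-γ lists, 0.21 with libraries alone, 0.50 by gates, 0.22 with clusters weighted equally and 0.47 with clusters 14 and 22. Its share of positive cells (0.40) was 0.087 with libraries alone and -0.046 under that strict filter. The share of Cxcl9-positive macrophage-like cells lay between 0.66 and 1.40.

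Of the values past their counting interval elsewhere, these turned. Cxcl9 in monocyte-like cells was -0.19 when clustered with the 5 genes, -0.48 without the interferon-γ lists and -1.89 with libraries alone, and in Kupffer-like cells -1.06 with all barcodes, -0.94 without the top Scrublet scores, -0.55 and -0.31 at resolutions 0.5 and 2 and -0.20 with libraries alone. Cxcl10 in monocyte-like cells was -0.23 at resolution 0.5, -0.25 with the 5 genes, -0.21 without the lists and -0.0098 with libraries alone, and in cDC1-like cells -0.36 at resolution 0.5, -0.41 with cells weighted equally and -0.51 without the highest cells. The cause of these turns was not tested, except that leaving out the highest cell of each library turned the last. Cxcl9 kept its direction in cDC1-like (1.70 to 2.09), cDC2-like (0.84 to 2.03) and neutrophil-like cells (1.66 to 2.66). Values whose interval included 0 also changed sign: Cxcl10 in Kupffer-like cells (0.36) ranged from -0.82 to 1.36 and kept its sign in 8 of 12 alternatives, and in endothelial-like cells (0.11) it ranged from -0.19 to 0.34 and kept it in 8 of 13. Cxcl9 in endothelial-like cells kept it in 10 of 13. Depth limits shares of cells with few UMIs, and class borders limit monocyte, macrophage and Kupffer values. Shares were not computed for equal weights.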

Other observations

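Clusters outside the named classes held the ligands too, and their values are given with no explanation. Cluster 7, led by Pf4, Cd5l, Vsig4 and C1q genes, was shallow, with a median of 714 UMIs in 132 cells with Trem2-/- marrow and 705 UMIs in 448 cells with Trem2+/+ marrow. Cxcl9 stood there at 349 CPM (52 UMIs) and 209 CPM (92 UMIs), a log2 interval of 0.22 to 1.24, while Cxcl10 had only 7 and 40 UMIs. Cluster 25, with the Kupffer-cell gene Clec4f and the endothelial gene Cdh5 among its leading genes, had Cxcl9 at 171 CPM in 60 cells with Trem2-/- marrow and 299 CPM in 37 cells with Trem2+/+ marrow, the opposite direction to the macrophage-like cells (log2 interval -1.29 to -0.32).

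Cxcl10 was high in cluster 8, which no marker list named and which was led by Oas2, an interferon-induced antiviral gene, and by the nuclear RNAs Neat1 and Kcnq1ot1. It stood there at 625 CPM in 254 cells with Trem2-/- marrow and 549 CPM in 282 cells with Trem2+/+ marrow, close to the monocyte-like level, with a log2 interval of -0.09 to 0.47. Cxcl16 in the same cluster stood at 249 and 273 CPM.

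Cxcr6 also lay in cluster 9, shallow cells led by Klrc2 and Fasl, with a median of 776 and 702 UMIs. It had 68 UMIs in 350 cells with Trem2-/- marrow and 10 UMIs in 177 cells with Trem2+/+ marrow (216 and 71.7 CPM, log2 interval 0.62 to 2.71). Cluster 26, led by the basophil and mast cell genes Cyp11a1, Fcer1a and Gata2, had 16 cells in each library and 12 Cxcr6 UMIs in each.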
